A study of Mus musculus with 8 samples.

Results

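Reprogramming intermediates of the WT genotype, mouse fibroblasts on their way to induced pluripotent stem cells, were compared at day 8 between a medium with the signalling protein TGF-beta and a medium with Repsox. The comparison takes the 4 WT libraries among the 8 RNA-seq libraries in the count table used here, 2 per medium, and covers all genes: 15789 of 26930 genes in the table had enough counts to be tested. The WT Repsox group received Repsox at 250 nM, and the WT TGF-beta group received recombinant TGF-beta1 at 2.5 ng/ml. Both groups are named WT in the titles and H3 in the descriptions, and both were reprogrammed in what the labels call AGi medium, in a study whose design text names OKSM, the factors Oct4, Klf4, Sox2 and Myc. The other 4 libraries are K36M intermediates, named for a lysine-to-methionine mutant of histone H3, in the same media, at the same day and doses, and are used below only to set the WT response beside theirs. No day 8 library without either agent was analysed here, so a difference between the media cannot be assigned to the added TGF-beta or to the inhibitor alone. Nothing in the labels tells whether replicate libraries stem from different cultures or mice, so every p-value measures the spread between these libraries only.

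TGF-beta ligands are secreted in latent form, are released at the cell surface, and bind a type II and a type I receptor kinase. The type I receptor Tgfbr1, also called ALK5, phosphorylates Smad2 and Smad3, which enter the nucleus with Smad4 and switch on target genes, several of which code for inhibitors of the pathway. Repsox blocks the kinase activity of that type I receptor. Reprogramming of fibroblasts includes a mesenchymal-to-epithelial transition, and TGF-beta is known as a driver of the reverse change and as a barrier to reprogramming.

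The WT libraries held between 12532258 and 15594217 counts assigned to genes, after depletion of ribosomal RNA. Levels are given as CPM, counts scaled to a common library total after TMM, which corrects for differences in library composition, and they are not divided by gene length. Gene-wise tests used edgeR's quasi-likelihood F-test on the counts of all 8 libraries, with Benjamini-Hochberg adjustment over the 15789 genes, and a gene is said to rise or fall where its adjusted p is below 0.05. Fold changes are TGF-beta against Repsox on the log2 scale, with the standard error (SE) derived from the F statistic. In bulk RNA, fewer cells of one kind and less RNA per cell cannot be told apart.

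The media separated the WT transcriptome widely. With TGF-beta, 4580 genes rose, which is 29.0% of those tested, and 5271 fell, which is 33.4%. A change of 2-fold or more was reached by 1940 genes that rose (12.3% of those tested) and by 2887 that fell (18.3%), and at 32-fold or more 99 rose and 380 fell, so large changes were more often decreases. These shares are the background against which every gene list below is read, together with the median log2 fold change of all tested genes, which was -0.07. In 79.4% of the tested genes both libraries of one medium lay above both of the other. The balance of the calls depends on the scaling: 46.5% of the called genes were higher under TMM and 33.8% when libraries were scaled by total counts alone, a scaling that moved the median of all tested genes to -0.28. Of the genes given below as not called, Dsp (-0.16), Gapdh (-0.14), Grb10 (-0.19), Setd2 (-0.35) and Mylk (-0.81) passed as lower under total-count scaling.

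**Figure D1:**
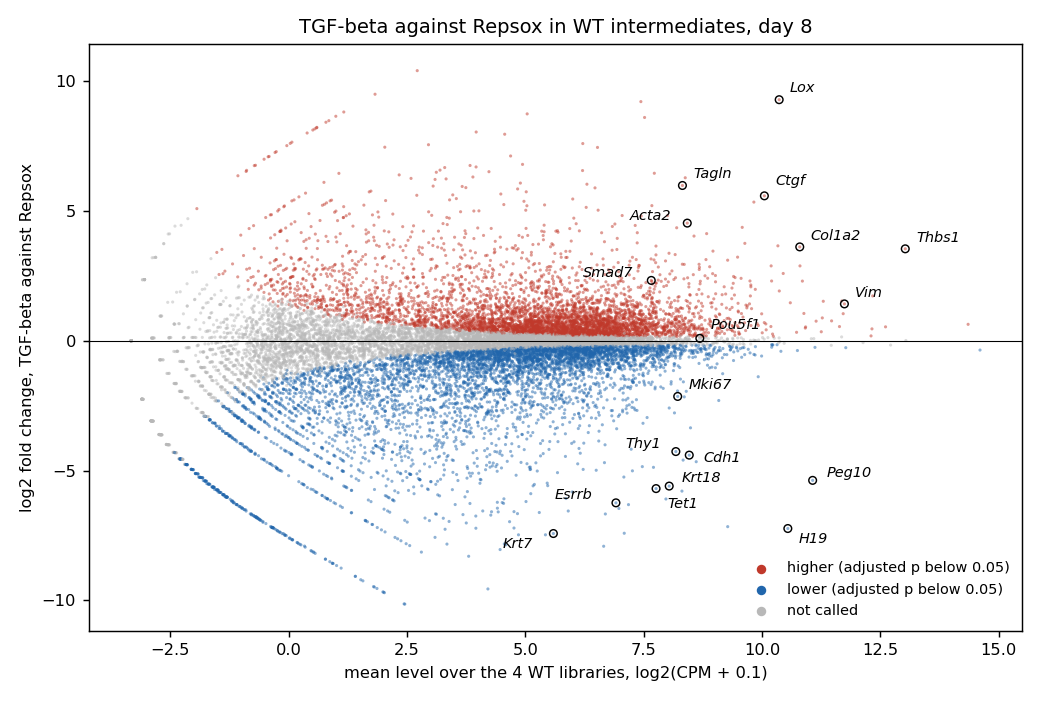
Log2 fold change of TGF-beta against Repsox in WT for each of the 15789 tested genes (vertical axis) against the mean level over the 4 WT libraries as log2(CPM + 0.1) (horizontal axis). Red points rose, blue points fell and grey points were not called. Lox (log2 fold change 9.30) lies near the top of the plot, H19 (-7.24) and Peg10 (-5.38) lie far below 0, and Pou5f1 sits near 0.

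The largest fitted increase among named genes with an average log2 CPM of at least 2 was that of Lox, the lysyl oxidase that cross-links collagen and elastin. Lox stood at 4.58 and 3.7 CPM with Repsox and 2599.8 and 2652 CPM with TGF-beta (log2 fold change 9.30, SE 0.25, adjusted p = 1.06e-18). C1qtnf3, a secreted C1q/TNF-related protein, stood at 0.27 and 0.907 CPM with Repsox and 351 and 342 CPM with TGF-beta (log2 fold change 9.22, SE 0.22). Only genes without overlap between the media entered this ranking, so the separation of the libraries is part of the selection. Megf10, a scavenger-type receptor, rose from 1.21 and 0.604 CPM to 350.3 and 381 CPM. Fbxo40, an F-box protein known from muscle, rose from 0.27 and 0 CPM to 70.2 and 60.7 CPM. The other genes of this group were Ikzf1, Cpn1, Fermt1, Alpk2, Ptprb, Cdh10, Stmn4 and Gucy1b3, with fitted log2 fold changes from 6.70 to 8.05. Ikzf1 and Alpk2 had 3 and 2 counts in all with Repsox, so their ratios rest on few counts: 287 (95% counting interval 97.9 to 1396) for Ikzf1 and 214 (95% counting interval 58.8 to 1771) for Alpk2.

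Most of the genes with the largest fitted decreases had no count at all with TGF-beta. A fitted value against 0 depends on how 0 is handled, so these genes are given by their bounds, with no ranking. Foxd3, a transcription factor of pluripotent and neural crest cells, had 193 and 110 counts in the Repsox libraries and 0 with TGF-beta, which makes it at least 91.9-fold lower, taking 3 counts over the group as the limit that 0 allows. By the same limit Rsad2, an antiviral interferon-stimulated gene, was at least 66.1-fold lower, Lrrc34 at least 60.1-fold, Trap1a at least 57.9-fold and Aire, best known from thymic epithelium, at least 57.3-fold. Sct, the secretin gene, and Dmrt1, a sex-determination factor, were at least 49.4-fold and 34.9-fold lower. Dmrtc1b, Vgll1 and Gstm3 were also at 0 with TGF-beta, with bounds from 22.8 to 30.6; Dmrtc1b has a close copy, Dmrtc1a, so its reads may be shared. Igf2as, transcribed from the strand opposite Igf2, had 585 and 452 counts with Repsox and 1 and 0 with TGF-beta, a ratio of 944 (95% counting interval 169 to 37310.0), and Rhox9, an X-linked homeobox gene, 470 and 313 counts against 0 and 2, a ratio of 356 (95% counting interval 98.3 to 2947). Whether the counting kept the strands apart is not given in the sources used here, so reads of Igf2as and Igf2 may be mixed. These limits and intervals cover counting error only.

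The 8 most abundant genes that rose by 2-fold or more include several of matrix and cytoskeleton. Thbs1, the thrombospondin that releases latent TGF-beta, stood at 1295 and 1329 CPM with Repsox and 14933 and 15756 CPM with TGF-beta (log2 fold change 3.55, SE 0.08, adjusted p = 1.94e-19). Fn1, fibronectin, rose from 2567 and 2221 CPM to 7802 and 8098 CPM, and Vim, the intermediate filament vimentin, from 1904 and 1808 CPM to 4845 and 5115 CPM. Sparc, a collagen-binding matrix protein, rose by 2.30 on the log2 scale, Lrp1, an endocytic receptor, by 1.54, Flna, filamin A, by 1.53, Ftl1, the ferritin light chain, by 1.06 and Myh9, non-muscle myosin, by 1.05. The 8 most abundant genes that fell by 2-fold or more include the imprinted genes Peg10, H19 and Igf2, which are described further on. Also among them were Slc2a3, a glucose transporter (log2 fold change -2.30), Hsp90aa1, a chaperone (-1.38), and Trim28, a co-repressor of retroelements (-1.27). Hdgf, hepatoma-derived growth factor, and Akap12, a kinase anchor, fell by about 2-fold, at -1.04 and -1.02.

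Within the TGF-beta pathway itself, ligands and latency proteins split: 7 rose and 4 fell among 14 tested members, with a median log2 fold change of 0.40. Tgfb1, the ligand whose protein was added, stood at 27.6 and 23.7 CPM with Repsox and 27.8 and 32.2 CPM with TGF-beta and was not called (log2 fold change 0.23, SE 0.12, adjusted p = 0.115); without the first Repsox library its adjusted p was 0.0393. Tgfb2 rose from 21.2 and 23.2 CPM to 106 and 117 CPM and Tgfb3 from 19.5 and 18.4 CPM to 55 and 63.6 CPM. Both libraries with TGF-beta were above both with Repsox for these other ligands, with fitted folds of 5.01 and 3.12. Itgav, the integrin chain that activates latent TGF-beta, rose by 1.82 on the log2 scale and Fbn1, the fibrillin that stores latent complexes, by 2.22. The latency proteins Ltbp1 (log2 fold change -1.32), Ltbp2 (-1.57) and Lrrc32, also called GARP (-1.35), fell, while Ltbp4 rose by 0.37, a call that was lost under total-count scaling (0.17) and without the second library of either medium, and Ltbp3 was not called (0.05).

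Receptors of the family moved in both directions: 8 rose and 4 fell among 13 tested members (median 0.67). Tgfbr1, the target of Repsox, stood at 35.9 and 40.4 CPM with Repsox and 93.5 and 92.3 CPM with TGF-beta (log2 fold change 1.29, SE 0.10, adjusted p = 1.65e-10), and Tgfbr2, its type II partner, rose by 0.67. The co-receptor Tgfbr3, betaglycan, went the other way, at 107 and 92.2 CPM with Repsox and 2.5 and 3.3 CPM with TGF-beta (log2 fold change -5.08, SE 0.17, adjusted p = 7.56e-17). The media did not overlap for any of these receptors. Acvr1, a type I receptor that also binds BMPs, rose from 35.9 and 27.6 CPM to 398 and 404 CPM, Bmpr2 by 2.06 and Bmpr1b by 5.95 from under 1 CPM. The activin receptors Acvr1b (-2.30) and Acvr2b (-2.73) fell. Tdgf1, Cripto, the co-receptor of Nodal, fell from 68.8 and 71.5 CPM to 0.947 and 1.87 CPM (log2 fold change -5.59).

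Of the Smads and their partners, 8 rose and 4 fell among 14 tested (median 0.31), with 5 rising under total-count scaling and 2 falling without the first TGF-beta library. Smad2 and Smad3, which carry the TGF-beta signal, rose by 0.39 and 0.27 on the log2 scale. Neither was called under total-count scaling (adjusted p = 0.0685 and 0.544), nor was Smad3 without the second TGF-beta library (0.155). Smad4, shared with BMP signalling, was not called (0.08, adjusted p = 0.39). Foxh1, the DNA-binding partner of Smads in Nodal signalling, fell from 27.3 and 25.5 CPM to 0.516 and 0.79 CPM (log2 fold change -5.29). Runx1 and Runx2, Smad-binding factors of blood and bone, rose by 1.30 and 1.53.

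Genes that restrain the pathway rose with TGF-beta more often than they fell: 7 rose and 2 fell among 12 tested members, with a median of 0.73; 4 fell under total-count scaling and 1 by DESeq2 or without the first TGF-beta library. Smad7, the inhibitory Smad, stood at 69.3 and 64.8 CPM with Repsox and 333 and 342 CPM with TGF-beta (log2 fold change 2.33, SE 0.08, adjusted p = 1.91e-16). Skil, the SnoN co-repressor, stood at 44.2 and 50.9 CPM with Repsox and 386 and 381 CPM with TGF-beta (log2 fold change 3.01, SE 0.08, adjusted p = 2.82e-18). Pmepa1, which sequesters Smads, stood at 20.5 and 14.2 CPM with Repsox and 489 and 503 CPM with TGF-beta (log2 fold change 4.83, SE 0.12, adjusted p = 2.31e-19). All 3 were higher in both libraries with TGF-beta than in either with Repsox. The ubiquitin ligases Smurf1 and Smurf2 rose by 1.54 and 1.40. Smad6, the inhibitor tied to BMP signalling, fell by 0.77 on the log2 scale, and Bambi, a decoy receptor, was not called (0.14).

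Most textbook target genes rose: 19 rose and 4 fell among 24 tested members, with a median of 1.84 on the log2 scale. Ctgf, the matricellular protein also called Ccn2 (mm9 chromosome 10, 24315248 to 24318489), stood at 40.7 and 45.5 CPM with Repsox and 2052 and 2099 CPM with TGF-beta (log2 fold change 5.59, SE 0.10, adjusted p = 1.60e-21). Tagln, the actin-binding protein SM22, stood at 9.37 and 10.4 CPM with Repsox and 613 and 643 CPM with TGF-beta (log2 fold change 5.99, SE 0.10, adjusted p = 6.50e-22). Libraries of the same medium lay close together, and the fitted folds were 48.2 and 63.6. Adam12, a metalloprotease, rose by 5.04, Il11, a profibrotic cytokine, by 4.76, Nox4, an oxidase of myofibroblasts, by 4.33 and Ccdc80, a matrix protein, by 3.46. Of the members that fell, Angptl4, a lipase inhibitor, fell by 1.83 and Adam19 by 0.51; Comp, a cartilage matrix protein, had 1 count with TGF-beta, a ratio of 39.1 (95% counting interval 6.66 to 1581); and Lmcd1 fell by 2.70 from about 2 CPM. Tgfbi, named for its induction by TGF-beta, rose by 0.41 and was not called under total-count scaling (adjusted p = 0.151) or without the second TGF-beta library (0.178).

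Nodal and most BMP genes fell while activin A rose. In the activin and Nodal list, 5 rose and 3 fell among 10 tested members (median 0.74). Inhba, the activin A subunit, rose from 20.8 and 16.8 CPM to 109 and 96.6 CPM, and Inhbb, the activin B subunit, fell from 121 and 107 CPM to 1.64 and 1.72 CPM. Nodal, the ligand of early embryonic patterning, fell from 18.8 and 18.6 CPM to 0.516 and 0.503 CPM (log2 fold change -5.17). Fstl3, an activin-binding protein, rose by 2.70, and Fst, follistatin, by 0.55. Lefty1, a Nodal antagonist, rose by 1.43 on the log2 scale from about 2 CPM. Lefty2 stood at 0.0674 and 1.21 CPM with Repsox and 0.43 and 0.0718 CPM with TGF-beta and was not called, with values that overlapped between the media; it passed as lower without the first Repsox library (-2.32, adjusted p = 0.00417), and its sign turned without the second (1.67). In the BMP list, 4 rose and 13 fell among 18 tested members (median -1.62), and by DESeq2 3 rose and 10 fell. The ligands Bmp4 (-2.77), Bmp7 (-4.31) and Bmp2 (-2.70) fell, as did the antagonist Grem1 (-2.85). Id1, Id2 and Id3, inhibitors of bHLH factors and direct targets of BMP Smads, fell by 1.38, 3.12 and 1.49. Bmp1, a procollagen protease and no BMP ligand despite its name, rose by 2.29.

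**Figure D2:**
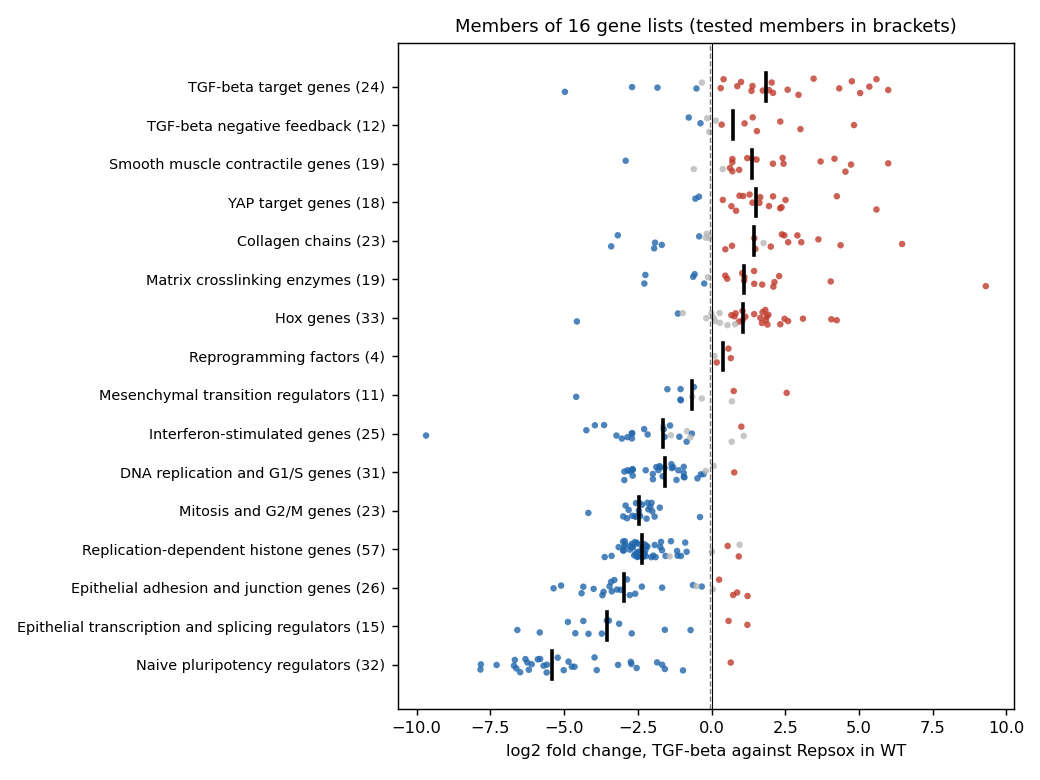
Log2 fold change of TGF-beta against Repsox in WT (horizontal axis) for the tested members of 16 gene lists (rows; number tested in brackets). Red points rose, blue points fell, grey points were not called, black bars mark list medians and the dashed line marks the median of all tested genes (-0.07). The median of the naive pluripotency list (-5.40) lies farthest to the left and that of the TGF-beta target list (1.84) farthest to the right.

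The contractile apparatus of smooth muscle and myofibroblasts rose nearly as a whole: 16 rose and 1 fell among 19 tested members (median 1.37). Acta2, smooth muscle actin, stood at 26.4 and 30.1 CPM with Repsox and 612 and 702 CPM with TGF-beta (log2 fold change 4.54, SE 0.10, adjusted p = 3.21e-20). Actg2, the enteric smooth muscle actin, rose by 4.17, Cnn1, calponin, by 4.73, Myl9, the regulatory light chain of myosin, by 3.70 and Tpm1, tropomyosin, by 2.41. Des, desmin, was the member that fell (-2.91), and Mylk and Synpo2 were not called. Targets of the mechanosensitive co-activator YAP rose as well: 16 rose and 2 fell among 18 tested members (median 1.51). That list shares Ctgf, Cyr61 and Tgfb2 with the TGF-beta lists. Ankrd1, a cardiac and stretch-responsive protein, rose from 4.72 and 5.51 CPM to 98.2 and 96.1 CPM, Axl, a receptor kinase, by 1.62, and Amotl2 and Lats2, which restrain YAP, by 1.07 and 0.67. Arhgef17 and Nt5e were the members that fell, by 0.43 and 0.55; Nt5e was not called without the second Repsox library (adjusted p = 0.177) or the first TGF-beta library (0.124).

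Most epithelial genes fell. The promoters of 2 of these epithelial genes, Epcam and Krt18, were found in the RefSeq promoter table (build GRCm38.p6); Cdh1, Ctgf and Pmepa1 were not in it. They are shown because both genes fell, as the 250 bases before the annotated start, 5′ to 3′ on the gene strand, which is the plus strand for both. Capitals mark matches on either strand to the E-box CAGGTG, which binds Snail and Zeb repressors, and to the Smad boxes GTCTAGAC, CAGACA and GGCGC.
Epcam, chr17:87635729-87635978: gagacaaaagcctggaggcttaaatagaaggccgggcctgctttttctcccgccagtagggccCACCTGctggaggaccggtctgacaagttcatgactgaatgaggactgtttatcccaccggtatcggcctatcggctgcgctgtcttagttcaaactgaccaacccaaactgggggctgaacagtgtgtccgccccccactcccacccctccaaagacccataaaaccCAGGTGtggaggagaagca
Krt18, chr15:102027966-102028215: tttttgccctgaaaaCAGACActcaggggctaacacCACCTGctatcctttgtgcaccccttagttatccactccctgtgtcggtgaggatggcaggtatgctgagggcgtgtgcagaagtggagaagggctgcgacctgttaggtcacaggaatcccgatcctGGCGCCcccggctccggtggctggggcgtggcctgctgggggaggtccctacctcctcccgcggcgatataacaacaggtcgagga
The Epcam window holds the E-box at 19 to 14 bases before the start, and again on the other strand at 187 to 182 bases before it. In the Krt18 window an E-box lies on the other strand at 214 to 209 bases before the start, a CAGACA at 235 to 230, and a palindromic pair of overlapping GGCGC matches at 86 to 81. GTCTAGAC matches neither window. Among all 32851 windows of this length in the table, 17.2% hold CAGGTG, 17.1% CAGACA, 32% GGCGC and 0.167% GTCTAGAC. A match describes these letters and shows no binding.

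Cdh1, E-cadherin (mm9 chromosome 8, 109127251 to 109194146), stood at 666 and 680.0 CPM with Repsox and 41.1 and 23.1 CPM with TGF-beta (log2 fold change -4.41, SE 0.14, adjusted p = 1.74e-17). Krt18, a keratin of simple epithelia (mm9 chromosome 15, 101858647 to 101862457), stood at 552 and 478 CPM with Repsox and 9.55 and 11.6 CPM with TGF-beta (log2 fold change -5.60, SE 0.10, adjusted p = 3.03e-21). Epcam, an epithelial adhesion molecule that rises during reprogramming, stood at 114 and 139 CPM with Repsox and 16.7 and 8.04 CPM with TGF-beta (log2 fold change -3.38, SE 0.17, adjusted p = 6.06e-14). Every library with TGF-beta was below every library with Repsox for all 3 genes. Among adhesion and junction genes, 4 rose and 20 fell among 26 tested members (median -2.97). The tight junction genes Tjp3 (-5.36), Crb3 (-5.10), Cldn3 (-4.35) and Ocln (-3.46) fell, as did Dsg2, a desmosomal cadherin (-3.29). Not all junction genes followed: Jup, plakoglobin, rose by 0.87, Pkp2 by 0.73 and Cxadr, the coxsackievirus receptor, by 1.22, and Dsp, desmoplakin, was not called (0.05).

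The other epithelial lists fell with them. Of the simple keratins, 1 rose and 5 fell among 6 tested members (median -3.96), with Krt7 at 106 and 85.7 CPM with Repsox and 0.258 and 0.79 CPM with TGF-beta and Krt8, the partner of Krt18, at -4.88 on the log2 scale. Krt20 was the keratin that rose, by 3.12. Without the second TGF-beta library the median was -5.08, and -4.87 in the fit of the 4 WT libraries alone, which kept 5 members. The call for Krt42, under 0.5 CPM in every library, was lost without any 1 WT library and by DESeq2, leaving 4 that fell. Of the epithelial transcription and splicing regulators, 2 rose and 13 fell among 15 tested members (median -3.55). Esrp1, a splicing factor of epithelia, stood at 78.9 and 78.9 CPM with Repsox and 6.28 and 1.79 CPM with TGF-beta (log2 fold change -4.35, SE 0.21, adjusted p = 2.86e-14), and Grhl2, which maintains epithelial cadherin expression, fell by 3.13. Elf3 (-6.58), Tfap2c (-5.83) and Tfap2a (-4.87), transcription factors of epithelia and trophoblast, fell furthest. Ehf, another epithelial factor, was among those that rose (1.21). Of the sorting and membrane protease genes, 1 rose and 8 fell among 11 tested members (median -2.58): Prss8, prostasin (-6.72), Ap1m2, the epithelial clathrin adaptor (-4.95), and Spint1, a protease inhibitor (-4.46), fell, and Mal2, of apical transport, rose by 0.95 from about 1 CPM. The Mal2 call was lost under total-count scaling (adjusted p = 0.0687), in the fit of the 4 WT libraries alone (0.0620), without the second Repsox library (0.112) and without the first TGF-beta library (0.218).

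Most classical inducers of the mesenchymal state did not rise: 2 rose and 6 fell among 11 tested members (median -0.65). Snai1, Snail, stood at 28.5 and 24.6 CPM with Repsox and 18.2 and 23.8 CPM with TGF-beta and was not called (log2 fold change -0.33, SE 0.15, adjusted p = 0.0579). It passed as lower under total-count scaling (log2 fold change -0.54, adjusted p = 0.00353), without the low-count filter (-0.35, 0.0445), with the replicate block (-0.34, 0.0497), without the second Repsox library (-0.43, 0.0240) and without the second TGF-beta library (-0.55, 0.0173), and no alternative gave a positive value. Snai2, Slug, stood at 13 and 16.1 CPM with Repsox and 7.83 and 6.25 CPM with TGF-beta (log2 fold change -1.05, SE 0.22, adjusted p = 3.13e-04). Twist1 fell by 1.04, and Twist2 fell from 22.1 and 19.7 CPM to 0.689 and 1.01 CPM. Prrx1, of limb mesenchyme, fell by 1.05. The members that rose were Zeb2, a repressor of Cdh1 (0.75, adjusted p = 2.22e-06), and Tbx18, of mural and limb mesenchyme (2.55).

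Mesenchymal effector genes were divided: in the list of mesenchymal and fibroblast identity, 11 rose and 9 fell among 21 tested members (median 1.17). Thy1, the fibroblast surface protein that is lost early in reprogramming (mm9 chromosome 9, 43851467 to 43856662), stood at 552 and 549.7 CPM with Repsox and 25.7 and 31.2 CPM with TGF-beta (log2 fold change -4.27, SE 0.09, adjusted p = 6.22e-20), lower with TGF-beta in both libraries. Cdh2, N-cadherin, the cadherin of mesenchymal cells, stood at 30.5 and 28.9 CPM with Repsox and 263 and 291 CPM with TGF-beta (log2 fold change 3.22, SE 0.10, adjusted p = 9.04e-18), so the cadherins moved in opposite directions. Pdgfra, a receptor of fibroblasts, fell from 56.8 and 52.8 CPM to 2.84 and 3.59 CPM, and S100a4 (-2.62), Pdpn, podoplanin (-2.89), and Cdh11 (-1.18) fell with it. Cd44, the hyaluronan receptor, rose from 294 and 343 CPM to 1408 and 1428 CPM, Has2, a hyaluronan synthase, by 4.52, Ncam1, a neural and mesenchymal adhesion molecule, by 4.36 and Ddr2, a collagen receptor, by 1.17. Thy1 and Pdgfra thus moved with the epithelial genes, against Vim, Cdh2 and the collagen chains Col1a1 and Col1a2.

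Collagen chains rose more often than they fell: 13 rose and 6 fell among 23 tested members (median 1.45). Col1a2 stood at 299 and 234 CPM with Repsox and 3031 and 3545 CPM with TGF-beta (log2 fold change 3.62, SE 0.09, adjusted p = 9.17e-19) and its partner Col1a1 at 452 and 339.8 CPM with Repsox and 2200.3 and 2590.1 CPM with TGF-beta (log2 fold change 2.60). The minor fibrillar chains Col5a2 (4.38) and Col11a1 (6.46) and the anchoring fibril Col7a1 (2.91) rose as well. Col5a3, another fibrillar chain, was called lower, a call that was lost by DESeq2 (-0.38, adjusted p = 0.139). The Col5a3 call was also lost without the first Repsox library (-0.40) or the first TGF-beta library (-0.29). Chains of one trimer did not always move together. Col6a1 rose by 0.70, while Col6a2, its partner, fell by 3.18 and Col6a3 stood at 552 and 521 CPM with Repsox and 84.7 and 192 CPM with TGF-beta (log2 fold change -1.95), with more than 2-fold between its TGF-beta libraries. Of the basement membrane chains, Col4a1 and Col4a2 were not called (-0.07 and -0.16) but passed as lower under total-count scaling (-0.28 and -0.37) and without the second Repsox library (-0.17 and -0.28), and Col4a2 also without the low-count filter (-0.18), while Col4a5 (2.47) and Col4a6 (2.38) rose and Col18a1, the source of endostatin, fell by 1.69.

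The enzymes that process collagen rose with it: 13 rose and 5 fell among 19 tested members (median 1.11). Besides Lox, Loxl2 rose from 42.3 and 44.4 CPM to 703 and 722 CPM, Plod2, a lysyl hydroxylase, by 2.13, Fkbp10, a collagen chaperone, by 2.10 and Serpinh1, the chaperone HSP47, by 1.45. Pcolce, which enhances procollagen cleavage, and Adamts2, which cleaves its N-propeptide, fell by 2.28 and 2.24. Among matrix glycoproteins and proteoglycans, 13 rose and 10 fell among 29 tested members (median 0.16, or -0.04 under total-count scaling). Fbln2, fibulin 2, rose from 48.7 and 49.4 CPM to 836 and 886 CPM, Igfbp5, an IGF-binding protein, by 3.38 and Igfbp7 by 3.07. Fbln1, its paralogue, fell by 2.77, Prelp, a small proteoglycan, fell from 119 and 119 CPM to 0.43 and 1.94 CPM, and Lum, lumican, was at 0 with TGF-beta, at least 30.6-fold lower.

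Matrix proteases and cell-matrix receptors were mixed. Among proteases and their inhibitors, 9 rose and 9 fell among 21 tested members (median -0.13): Mmp14, the membrane collagenase, rose by 2.30 and Timp3 by 2.95, while Serpinf1, an anti-angiogenic serpin, fell by 4.74, Plat, tissue plasminogen activator, by 2.16 and Mmp19 by 3.56. Among integrins and laminins, 14 rose and 9 fell among 27 tested members (median 0.43). Itgb1, the shared beta chain of most matrix integrins, stood at 416 and 432 CPM with Repsox and 3122 and 3163 CPM with TGF-beta (log2 fold change 2.89, SE 0.06, adjusted p = 1.64e-20). Itga11, a collagen receptor of fibroblasts, rose by 5.47 and Itga5, the fibronectin receptor chain, by 2.04. Itgb4, the hemidesmosome chain of epithelia, also rose, by 1.92. Lama5, the chain of epithelial laminins, fell from 673 and 564 CPM to 35.7 and 16.2 CPM, and Lama1, the embryonic chain, by 2.50, while Lama2, the muscle chain, rose by 3.35.

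**Figure D3:**
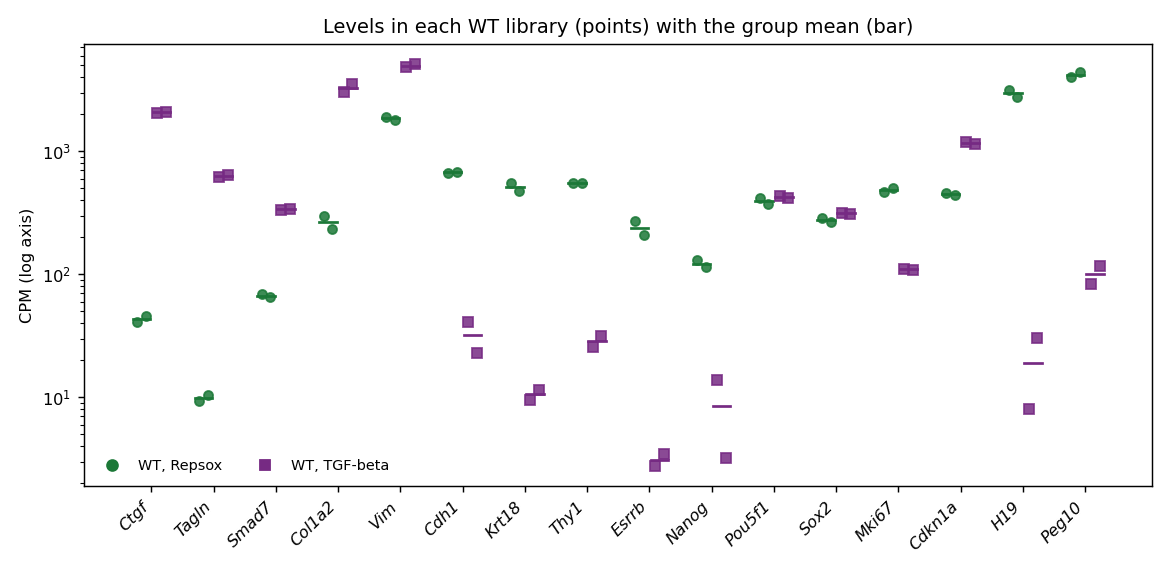
CPM of 16 genes in each WT library on a log axis, with Repsox as green circles and with TGF-beta as purple squares; horizontal bars are group means of 2 libraries. Ctgf, Tagln, Smad7 and Col1a2 are higher with TGF-beta, Cdh1, Krt18, Thy1, Esrrb and Nanog lower, and the Pou5f1 values of the media overlap.

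Naive pluripotency regulators fell almost without exception while the reprogramming factors did not. In the naive list, 1 rose and 31 fell among 32 tested members, with a median of -5.40. Esrrb, an orphan receptor of the naive network, stood at 269 and 207 CPM with Repsox and 2.75 and 3.45 CPM with TGF-beta (log2 fold change -6.25, SE 0.15, adjusted p = 1.94e-19). Tfcp2l1, a target of LIF signalling, fell from 523 and 466 CPM to 3.7 and 10.3 CPM, and Sall4, a zinc-finger partner of Oct4, from 318 and 277 CPM to 9.81 and 8.69 CPM. Nanog, the homeobox factor of the pluripotent network, stood at 129.8 and 114 CPM with Repsox and 13.9 and 3.23 CPM with TGF-beta (log2 fold change -3.89, SE 0.25, adjusted p = 5.65e-12), with the TGF-beta libraries about 4-fold apart. Utf1, a chromatin factor, fell by 5.58, and so did Trim71, which holds back differentiation (-4.85), Lin28a, which blocks let-7 (-4.65), and Klf2 (-6.20). Prdm14, Zfp42 and Dppa3 kept 1, 1 and 2 counts with TGF-beta, for ratios of 282 (95% counting interval 50.3 to 11180.0), 195 (95% counting interval 34.6 to 7727) and 257 (95% counting interval 70.7 to 2124). The smallest decrease was that of L1td1, an RNA-binding protein (-0.97), and Lin28b, the paralogue of Lin28a, was the member that rose (0.65, adjusted p = 0.00711). That call was lost under total-count scaling (adjusted p = 0.0597), without the first Repsox library (0.0755) and without the first TGF-beta library (0.0548), so no naive regulator passed as higher there.

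Pou5f1, Oct4, stood at 420.4 and 375 CPM with Repsox and 435 and 416 CPM with TGF-beta and was not called (log2 fold change 0.10, SE 0.07, adjusted p = 0.233); it passed as higher without the first Repsox library (0.18, adjusted p = 0.0212), and its sign turned under total-count scaling (-0.11). Sox2 stood at 288 and 266 CPM with Repsox and 316 and 310.1 CPM with TGF-beta (log2 fold change 0.18, SE 0.07, adjusted p = 0.0445), a call that was lost without the low-count filter, in the fit of the 4 WT libraries alone (adjusted p = 0.0567), without the second Repsox library and without either TGF-beta library, and whose direction turned under total-count scaling (-0.03). Klf4 rose from 481 and 445 CPM to 689.8 and 687 CPM and Myc from 379 and 349.8 CPM to 577 and 570.2 CPM, and both libraries with TGF-beta were above both with Repsox. Counts per gene do not separate transcripts of the introduced factors from those of the cells' own genes. Among formative genes, 2 rose and 5 fell among 8 tested members (median -0.86). Dnmt3b, a de novo DNA methyltransferase, fell by 4.99, Otx2 was at 0 with TGF-beta (at least 9.71-fold lower), and Lef1, a Wnt effector, and Sox4 rose by 2.85 and 2.13.

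Surface proteins used to follow reprogramming moved in both directions. Among them 3 rose and 7 fell among 12 tested members (median -1.86). Cd44, a marker of cells early on the path, was higher with TGF-beta and Thy1, which marks the starting fibroblasts, lower. Several other markers were lower with TGF-beta, among them Epcam, given above. Alpl, alkaline phosphatase, fell from 220.5 and 169 CPM to 38.6 and 22.5 CPM, and Kit (-5.48) and Pecam1 (-5.53) fell as well. Icam1 and Cd34 fell by 1.56 and 2.17, Cd24a rose by 2.95 and Itgb3 by 1.37, and Fut4, which makes the SSEA1 epitope, was not called (0.25).

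Proliferation genes fell. All 23 tested genes of mitosis and G2/M fell, with a median of -2.45. Mki67, the proliferation antigen, stood at 464 and 507 CPM with Repsox and 111 and 109 CPM with TGF-beta (log2 fold change -2.14, SE 0.07, adjusted p = 2.78e-17), and Top2a, topoisomerase II, at 448 and 453 CPM with Repsox and 78.2 and 71.9 CPM with TGF-beta (log2 fold change -2.59). Mybl2, a regulator of G2/M genes, fell from 319 and 252 CPM to 17.9 and 13.9 CPM. Among the members Foxm1, a transcription factor of the same phase, fell least (-0.39). In the DNA replication and G1/S list, 1 rose and 28 fell among 31 tested members (median -1.59). Mcm5, of the replicative helicase, fell by 2.67, Cdt1, a licensing factor, by 2.84 and Uhrf1, which guides maintenance methylation, by 2.96. Ccnd2, cyclin D2, was the member that rose (0.77).

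Of the replication-dependent histone genes, which are transcribed in S phase and whose mRNAs mostly lack poly(A) tails, 52 of 57 fell and 2 rose (median -2.34). The linker histone Hist1h1a stood at 241 and 204 CPM with Repsox and 22.3 and 20.2 CPM with TGF-beta and Hist1h4f at 145 and 153 CPM with Repsox and 21.1 and 17.2 CPM with TGF-beta, each below the Repsox libraries in both TGF-beta libraries. Histone genes are near-identical copies, so reads may be divided among them. Inhibitors of cyclin-dependent kinases and p53 targets were split: 9 rose and 8 fell among 20 tested members (median 0.14, or -0.07 under total-count scaling). Cdkn1a, p21, stood at 457 and 442 CPM with Repsox and 1180.3 and 1155 CPM with TGF-beta (log2 fold change 1.38, SE 0.06, adjusted p = 1.15e-14). Cdkn2b, p15, rose by 0.87 and Cdkn2a, which codes for p16 and p19ARF, by 0.59. Cdkn1b, p27, fell by 2.04, and Cdkn1c, p57, fell from 297 and 275 CPM to 2.41 and 4.6 CPM. Perp, a desmosomal p53 target, rose by 1.78 and Ccng1 by 1.24.

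Several chromatin regulators fell. In the DNA methylation list, 2 rose and 7 fell among 13 tested members (median -0.36). That list shares Tet1, Tet2 and Dnmt3l with the naive list, Uhrf1 with the G1/S list, and Dnmt3a and Dnmt3b with the formative list. Tet1, which oxidises methylcytosine, stood at 437 and 414 CPM with Repsox and 7.4 and 8.9 CPM with TGF-beta (log2 fold change -5.70, SE 0.10, adjusted p = 2.24e-21). Dnmt1, the maintenance methyltransferase, fell by 1.78, Tet2 by 1.85 and Dnmt3l, a cofactor of de novo methylation, from 27.8 and 22.7 CPM to 0 and 0.431 CPM, while Dnmt3a (0.12) and Tet3 (0.08) were not called; Dnmt3a passed as higher without the first Repsox library (0.21, adjusted p = 0.0473). Among Polycomb genes, 4 rose and 13 fell among 20 tested members (median -0.66). Jarid2, a PRC2 cofactor, fell by 2.56, Ezh2, its methyltransferase, by 1.45, and Cbx7, the main CBX of pluripotent cells, fell from 135 and 102 CPM to 6.46 and 8.69 CPM. Members that rose include Bmi1 (0.75), Ezh1 (0.41) and Cbx8 (0.86), the last not called without the second TGF-beta library (adjusted p = 0.0575), where 2 members rose. The H3K36 list holds writers and erasers of H3K36 methylation and the H3.3 genes, and also Dnmt3a, Dnmt3b, Mtf2, Phf19, Psip1 and Zmynd11. In this list, 7 rose and 8 fell among 21 tested members (median -0.06), beside 29.0% and 33.4% of all tested genes. Setd2, the H3K36 trimethylase, was not called (-0.14), Nsd1, a dimethylase, fell by 0.48, and Kdm2b, a demethylase, by 1.08. H3f3a and H3f3b, which code for H3.3, were not called (-0.06 and -0.15); both passed as lower under total-count scaling (-0.27, adjusted p = 0.00601, and -0.36, adjusted p = 0.000108), and H3f3b also without the second Repsox library (-0.16, adjusted p = 0.0455).

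Some of the largest decreases in abundant RNAs were those of imprinted genes, which are expressed from 1 parental allele and act in growth and placenta. In the imprinted list, 3 rose and 16 fell among 23 tested members (median -0.88, or -0.81 with genes at 0 set to their bound). H19, a noncoding RNA (mm9 chromosome 7, 149761434 to 149764048), stood at 3162 and 2772 CPM with Repsox and 8.09 and 30.2 CPM with TGF-beta (log2 fold change -7.24, SE 0.26, adjusted p = 1.69e-16), and its neighbour Igf2, the growth factor, at 1269 and 1191 CPM with Repsox and 3.1 and 13.4 CPM with TGF-beta (log2 fold change -7.16). For both, the TGF-beta libraries were about 4-fold apart, and both lay far below the Repsox libraries. Phlda2 fell by 7.48 and, with Cdkn1c, lies in the adjoining part of the same region. Peg10, a retrotransposon-derived gene of placenta, stood at 3986 and 4399 CPM with Repsox and 83.2 and 118 CPM with TGF-beta (log2 fold change -5.38, SE 0.11, adjusted p = 7.96e-21) and Peg3, a zinc-finger gene, at 750.3 and 752 CPM with Repsox and 29.7 and 29.7 CPM with TGF-beta. Meg3 and Rian, of the Dlk1 domain, fell by 0.38 and 0.52. The members that rose were Plagl1 (2.15), Ndn (1.40) and Impact (0.79), and Grb10 was not called (0.01).

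Most Hox genes, which keep positional identity in fibroblasts, rose: 22 rose and 2 fell among 33 tested members (median 1.05). Without the second TGF-beta library, and by DESeq2, 18 rose and 0 fell. Hoxa3 stood at 5.59 and 3.7 CPM with Repsox and 71.9 and 84.7 CPM with TGF-beta and Hoxa5 at 4.11 and 3.85 CPM with Repsox and 32.9 and 35.6 CPM with TGF-beta, with no overlap between the media. In the Hoxa cluster 9 of 10 tested genes rose and none fell, with values that were highest at Hoxa3 and Hoxa4 (4.24) and lowest among those that rose at Hoxa10 (0.93). In the Hoxc cluster 6 of 8 rose, from 1.45 at Hoxc10 to 2.59 at Hoxc9, and Hoxc13 fell by 1.14, a call that was lost without the first Repsox library (adjusted p = 0.157), without the second TGF-beta library (0.0854) and by DESeq2 (0.0778). In the Hoxb cluster, where Hoxb13 had no count in WT, 6 of 10 rose, by at most 1.73 at Hoxb4. Of those that rose, Hoxb3, Hoxb5 and Hoxb6 were not called by DESeq2 (adjusted p = 0.146, 0.0810 and 0.0750). Hoxb3 was also not called under total-count scaling (0.135). Hoxb1, at 0 with TGF-beta, was at least 1.82-fold lower (adjusted p = 0.0478). The Hoxb1 call was lost with median-of-ratios size factors (adjusted p = 0.0505), with the replicate block (0.0537), by DESeq2 (0.0654), and without the second Repsox library (0.315) or either TGF-beta library (0.136 and 0.167). In the Hoxd cluster 1 of 5, Hoxd4, rose (1.65), and it was not called without the first Repsox library (adjusted p = 0.115), without the second TGF-beta library (0.180) or by DESeq2 (0.0801). Antisense transcripts overlap several Hox genes, and reads from them cannot be set apart without knowing how strand was counted.

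**Figure D4:**
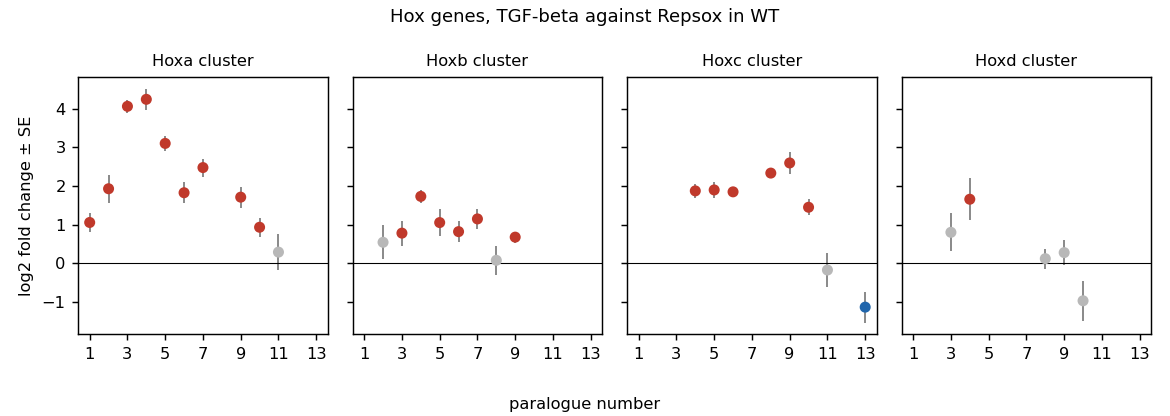
Log2 fold change of TGF-beta against Repsox in WT, with SE as vertical lines, for tested Hox genes by paralogue number in each cluster. Red points rose, blue points fell and grey points were not called; Hoxb13, with no count in WT, and Hoxb1, whose SE exceeds 1, are not drawn. In the Hoxa and Hoxc panels the genes from 1 to 10 lie above 0 and those from 11 on lie near or below it.

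Most genes of the Wnt and growth factor lists fell. In the Wnt list, 8 rose and 19 fell among 32 tested members (median -1.89). Axin2, the general feedback target of beta-catenin, fell from 34.2 and 24.7 CPM to 5.51 and 8.26 CPM, Sfrp1, a secreted antagonist, from 143 and 153 CPM to 11.2 and 14.1 CPM, and Nkd2 by 5.03. Wnt7b fell by 5.15 and Wnt6 was at 0 with TGF-beta, while Wnt5a and Wnt9a rose by 1.44 and 2.56. Among growth factor genes, 8 rose and 14 fell among 25 tested members (median -0.43): Kit (-5.48), Erbb3 (-3.61) and Lifr, the LIF receptor (-2.19), fell, and Pdgfc (2.65) and Fgf2 (2.08) rose. Among AP-1 and immediate early genes, 5 rose and 4 fell among 14 tested members (median 0.03), and 3 rose and 7 fell under total-count scaling. Fosl2 and Jun rose by 1.27 and 0.98, Fos fell by 0.74 and Egr1 by 1.56.

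Most interferon-stimulated genes fell: 1 rose and 18 fell among 25 tested members (median -1.64), and their summed level was 249.8 to 259 CPM with Repsox and 79.7 to 82.1 CPM with TGF-beta. Bst2, tetherin, stood at 63.4 and 57.6 CPM with Repsox and 8.44 and 8.33 CPM with TGF-beta (log2 fold change -2.85, SE 0.11, adjusted p = 7.90e-16), and Oasl2 and Ddx58, an RNA sensor, fell by 3.22 and 1.62. Gbp2 was the member that rose, by 1.01 from about 1 CPM, a call that was lost in the fit of the 4 WT libraries alone (adjusted p = 0.0538), without the first Repsox library (0.124) and without the first TGF-beta library (0.112). Among chemokines, cytokines and acute phase genes, 5 rose and 12 fell among 19 tested members (median -0.92). Tnfrsf11b, osteoprotegerin, rose from 4.52 and 4.0 CPM to 155 and 148 CPM, and Ptges, prostaglandin E synthase, fell from 149.8 and 133 CPM to 8.26 and 9.98 CPM, while Ptgs2, the cyclooxygenase upstream of it, rose by 0.68. Of the MHC class I genes, 3 rose and 5 fell among 12 tested members (median -0.45), with B2m up by 1.63 and H2-K1, whose paralogues are similar in sequence, down by 0.55.

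Metabolic genes changed in parts. Of the glycolysis genes, 2 rose and 14 fell among 22 tested members (median -0.28). Slc2a1, the glucose transporter GLUT1, stood at 667 and 641 CPM with Repsox and 62.4 and 65.6 CPM with TGF-beta (log2 fold change -3.35, SE 0.07, adjusted p = 7.96e-21), Slc16a3, the lactate exporter, fell by 4.70 and Pdk1 by 2.00, while Gapdh was not called (0.07). Of the serine, glycine and proline synthesis genes, 3 rose and 8 fell among 13 tested members (median -0.51): Shmt1 (-2.20), Pycr1 (-1.89) and Asns (-1.62) fell. Of the cholesterol synthesis genes, 5 rose and 10 fell among 22 tested members (median -0.22), with 3 rising under total-count scaling. Calls for nuclear genes of the respiratory chain depend on the scaling: 17 rose and 11 fell among 76 tested members (median 0.04), against 2 and 29 under total-count scaling (median -0.17). Of the cytosolic ribosomal protein genes, 2 rose and 38 fell among 80 tested members (median -0.18), and 69 fell under total-count scaling; these genes have many processed copies in the genome. Rpl4 fell from 2004 and 1874 CPM to 1489.8 and 1504 CPM.

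Markers of other cell types moved in both directions. The 6 epithelial markers all fell (summed level 1801 to 1883 CPM with Repsox and 58.7 to 92.8 CPM with TGF-beta). All of them are also members of the junction, keratin or epithelial regulator lists above. Of 6 fibroblast markers, Col1a1 and Col1a2 rose, Thy1, Pdgfrb and Lum fell and Dcn was not called (0.49). Most trophoblast markers fell: 12 of 13 tested (median -4.96, or -5.59 without the second TGF-beta library; summed level 4453 to 4851 CPM with Repsox and 94 to 132 CPM with TGF-beta, most of it Peg10). Sfmbt2, a Polycomb gene of trophoblast, fell from 136 and 153 CPM to 3.62 and 5.53 CPM, and Gcm1, which drives syncytiotrophoblast, from 11.6 and 12.8 CPM to 0 and 0.359 CPM. The list shares Krt7, Tfap2c and Peg10 with the keratin, epithelial and imprinted lists, and the part of such cells in those decreases was not tested.

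Markers of the remaining cell types were tallied in the same way. The summed level of the endothelial list was higher with TGF-beta although most of its tested members fell. It stood at 72.1 and 67.0 CPM with Repsox and 123.0 and 123.1 CPM with TGF-beta. Cdh5, an endothelial cadherin among those that fell, was not called by DESeq2 (-1.53, adjusted p = 0.0590). Of 9 endothelial markers 7 fell and Tek, a receptor kinase, rose by 2.14, with Tie1 and Cldn5 at 0 with TGF-beta; Cldn5 was not called without the second library of either medium (adjusted p = 0.0626 for Repsox and 0.0568 for TGF-beta). Of 10 primitive endoderm markers 2 rose, Cubn (3.40) and Amn, the latter not called without either Repsox library, without the first TGF-beta library or by DESeq2, and 5 fell, Lama1, Pdgfra and Dab2 (-1.43) among them. Gata4, Gata6 and Ttr were not called, at 2.30 CPM or less in each library. Of neural markers, 4 rose and 3 fell among 8 tested members: Nes, nestin, rose from 139.5 and 117 CPM to 1037 and 1180.2 CPM, Neurog2 by 6.26 and Dcx by 5.01, while Olig2 fell. Pax6 was not called, though it passed as higher without the low-count filter (1.55), without the second Repsox library (2.45) and without the first TGF-beta library (2.31). Of cartilage and bone markers, 4 rose and 5 fell among 9 tested members, with Col2a1, cartilage collagen, rising from 9.64 and 8.23 CPM to 199 and 311 CPM and Spp1, osteopontin, falling from 565 and 679.9 CPM to 6.8 and 15.1 CPM.

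The muscle regulators Myod1, Myog and Myf5 had at most 3 counts in any WT library. Of the striated muscle markers, 2 rose and 2 fell among 7 tested members: Acta1, skeletal actin, stood at 0.809 and 0.302 CPM with Repsox and 5.16 and 4.45 CPM with TGF-beta (log2 fold change 3.05) and Tnnt2, cardiac troponin T, at 0.202 and 0.453 CPM with Repsox and 4.3 and 7.11 CPM with TGF-beta (4.12), while Myl4 (-4.71) and Des fell. Of the macrophage and blood markers, Ptprc had at most 3 counts in any WT library, and 3 rose and 2 fell among 5 tested members. Itgam (3.33) and Cd14 (2.76) rose and Csf1r (-4.05) and Lyz2 (-2.75) fell, while the call for Cd68 (0.36) was lost under total-count scaling, among other settings. Of germline markers, 1 rose and 6 fell among 14 tested members. The fit of the 4 WT libraries alone kept 4 of these members and called 3 lower. Piwil2 (-4.06), Tex19.1 (-4.75), Dppa3, Dazl, Sycp1 and Hormad1 fell, the last pair not called without the first library of either medium, and the call for Tdrd1 (0.97) was lost under total-count scaling, by DESeq2 and without any 1 WT library. All 6 melanocyte and neural crest markers tested fell, Kit and Foxd3 among them. Of keratinocyte markers, 2 rose and 4 fell among 9 tested members. The fit of the 4 WT libraries alone kept 7 of these members and called 2 lower. Sfn, stratifin, rose by 2.34 and Trp63 was at 0 with TGF-beta. Of 3 adipocyte markers tested, Pparg (-3.93) and Cebpa (-2.62) fell. Of stress genes, Hspa5, the endoplasmic reticulum chaperone, rose by 0.70 and Trib3, of the integrated stress response, fell by 2.56.

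The libraries of one medium differed for some of these genes. Between the TGF-beta libraries, 5 of 6 epithelial markers were higher in the first, with a median difference of 0.91 on the log2(CPM + 0.5) scale, against -0.01 over all tested genes, and 21 of 26 junction genes were higher there. Cdh1, Epcam and Esrp1 all show this gap, while H19 and Igf2 were higher in the second library. Of the collagen chains 3 of 23 were higher in the first TGF-beta library (median -0.17). In the first Repsox library 22 of 23 were higher (median 0.24), so the pairs of both media differed on this list. Over all 15789 tested genes, 7081 were higher in the first TGF-beta library and 8473 in the first Repsox library (median 0.02 for Repsox). Between the Repsox libraries the largest share of the counting difference came from AY036118, at 31990.1 and 23836 CPM, and from AC157822.1, at 1.55 and 540 CPM, neither of which enters a list. The calls for Cdh1, Epcam, Esrp1, Nanog, H19 and Igf2 held when any 1 WT library was left out.

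The response in WT was then set beside that of K36M intermediates, which share no library with it. Over all tested genes the median log2 fold change in K36M was 0.01. The share of all tested genes called in K36M is not given here. The K36M counts below therefore stand without a background share, and the WT shares above do not serve as one. Of the 4580 genes that rose in WT, 1854 also rose in K36M, 748 fell there and 1978 were not called; of the 5271 that fell, 1882 fell, 986 rose and 2403 were not called. The difference of the changes, WT minus K36M, was tested as an interaction: it was larger in WT for 3562 genes (22.6% of those tested) and smaller in WT for 4493 (28.5%). All 23 mitosis genes had smaller values in WT by this test, and in K36M 12 rose and 1 fell (median 0.22). Of the histone genes 50 of 57 were smaller in WT (K36M median 0.43), of the junction genes 22 of 26 (-0.01) and of the naive pluripotency genes 29 of 32 (-1.13). Thy1 fell in WT and rose in K36M (log2 fold change 1.38). Wnt genes had a median of -1.89 in WT and 0.83 in K36M, with 21 of 32 smaller in WT.

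TGF-beta targets were larger in WT for 13 of 24 members and smaller for 6, with a K36M median of 1.01: Ctgf changed by 2.59 in K36M and Tagln by 4.01, against 5.59 and 5.99 in WT. Contractile genes were larger in WT for 14 of 19. Collagen chains had a median of 1.45 in WT and 1.81 in K36M, and the difference passed the test for 17 of 23, 6 larger and 11 smaller in WT. In K36M 22 of 25 interferon-stimulated genes fell, with a median of -3.36, and the difference passed for 8 of 25. Of the Hox genes 24 of 33 rose in K36M, with a median of 2.09.

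**Figure D5:**
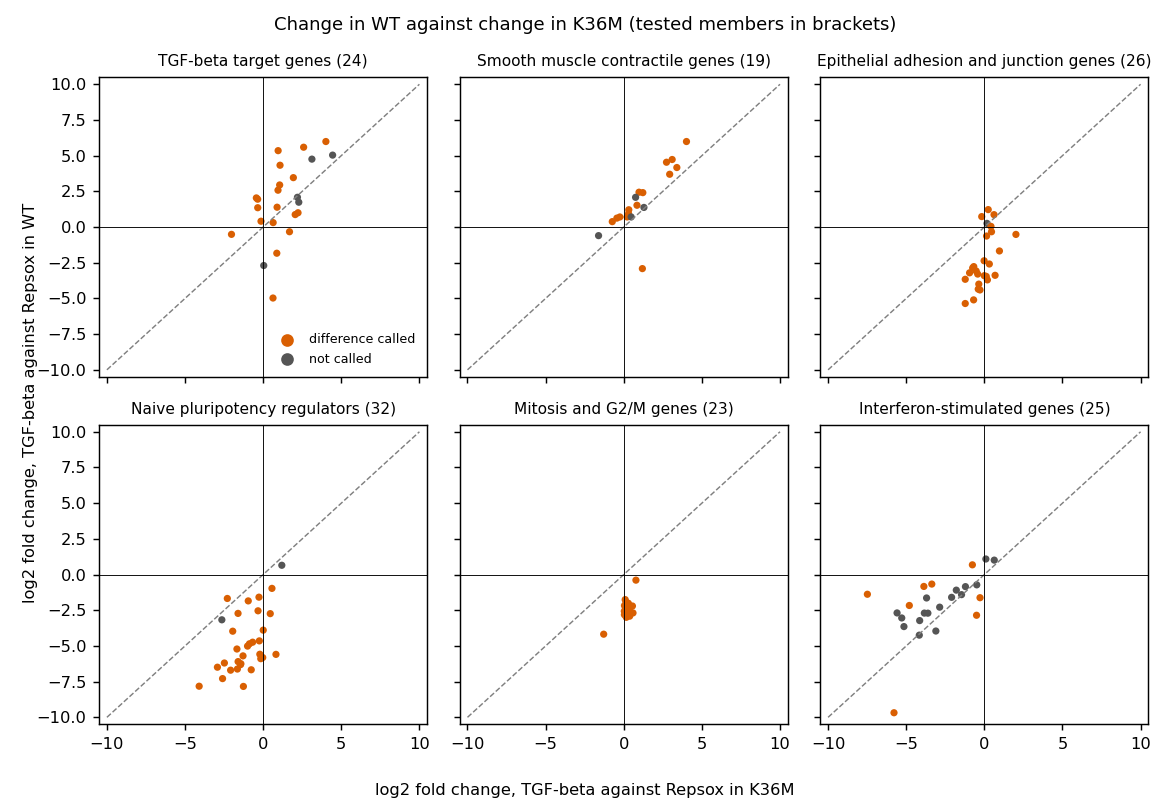
Log2 fold change of TGF-beta against Repsox in WT (vertical axis) against that in K36M (horizontal axis) for the tested members of 6 gene lists, with equal change marked by a dashed diagonal. Orange points are genes whose change differed between the genotypes (adjusted p below 0.05) and grey points are genes whose difference was not called. Mitosis genes lie near 0 in K36M (median 0.22) and below 0 in WT (median -2.45), while most interferon-stimulated genes lie below 0 in both.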

How the data were processed

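The deposited table holds read counts per gene as the authors made them, with no scaling. Per the submitters' processing notes the tools were STAR 2.5.0, HTSeq 0.11.2 and edgeR and the build was mm9; the annotation, the strand setting and the part edgeR played are not given in the sources used here. Per the labels' protocols, RNA was depleted of ribosomal RNA before library preparation. Library totals are whole counts assigned to genes, 14447449 and 12532258 with Repsox and 12761968 and 15594217 with TGF-beta.

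From these counts, genes were filtered with filterByExpr and scaled by TMM, and edgeR 4.0.16 (R 4.3.3) fitted a quasi-likelihood model to the 4 groups of 2 libraries, with no covariate, since no source gives a batch. The WT contrast and its difference from K36M were tested, with Benjamini-Hochberg adjustment at 0.05. The procedure was checked on simulated counts in which few genes changed, equally in both directions. That check does not cover changes as wide as those found here. Where 1 group had 0 counts, the fold is a bound at 3 counts over the group, and for 1 to 3 counts an exact 95% interval is given. Gene positions come from GENCODE vM1 (mm9), by gene ID (99.38% matched). Where a symbol had several IDs, the one with the most counts was used.

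Named genes are the 12 largest fitted increases and decreases with an average log2 CPM of at least 2, the 8 most abundant genes changed 2-fold or more each way, per list up to 4 called genes, by smallest adjusted p, a fixed set of pathway, cadherin, keratin and reprogramming genes, and the 6 largest differences from K36M each way; overlapping groups (first set only), predicted and unnamed loci, pseudogenes, mitochondrial genes, small RNAs and histone clusters were left out of the ranked sets. Some genes under these rules are not reported here, and Zeb1 is not described, because the row of that name has few counts and an unexpected gene ID. Further list members were named after their values were seen, to describe each list. The members, lists and tests were chosen with earlier results of these data known, and 12 of 1107 listed genes had no row. Alternatives were DESeq2 1.42.0, other scalings, no filter, the WT libraries alone, a replicate block and each library left out.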

Additional observations from a re-analysis of the deposited data

Results flagged for a closer look

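Each value below is a difference between the genotypes in the response to the medium, tested as an interaction in edgeR with adjusted p below 0.05, and is printed as the log2 change in WT minus that in K36M. Such a difference passed for 3562 genes with a larger and 4493 genes with a smaller value in WT.

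Among named genes with an average log2 CPM of at least 2, the largest differences in favour of WT were those of Cpn1 (7.82), Megf10 (6.54), Fbxo40 (6.34), C1qtnf3 (6.31) and Clstn2 (6.14). Dmrtc1a (6.29) fell in both genotypes and had no count in K36M with TGF-beta, so its fitted value depends on how 0 is handled. The largest in the other direction were Lefty2 (-10.70), Trim67 (-9.53), Aire (-9.37), Tie1 (-9.17), Hrc (-8.83) and Trap1a (-8.36). Lefty2 and Trim67 rose in K36M from under 1 CPM and were not called in WT; Aire, Tie1, Hrc and Trap1a had 0 counts in WT with TGF-beta, so their fitted values are no bounds.

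Epithelial genes and Thy1 had smaller values in WT: Thy1 -5.65, Krt18 -4.63, Esrp1 -4.26, Cdh1 -4.13, Krt8 -4.11, Epcam -4.07 and Grhl2 -2.91. So did Nanog (-3.90), Snai2 (-2.97), Mki67 (-2.45), Cdkn2a (-1.55), Twist1 (-1.38), Cdkn2b (-1.18), Tgfb1 (-0.81), H3f3a (-0.68), Col1a1 (-0.59), Pou5f1 (-0.49) and H3f3b (-0.42).

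Several TGF-beta target, feedback and contractile genes had larger values in WT: Ctgf 3.0, Tagln 1.97, Acta2 1.80, Pmepa1 1.69, Skil 1.37 and Smad7 1.31. Of the 24 tested target genes, 13 were larger and 6 smaller in WT, Cdkn2b among the smaller. Tgfbr1 (1.54), Fn1 (1.51), Cdh2 (1.35), Sox2 (0.91) and Klf4 (0.33) were larger in WT as well.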

How the results depend on the processing

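The count of genes that rose stayed between 3425 (total-count scaling) and 4872 (median-of-ratios size factors), and the count that fell between 4410 (DESeq2) and 6709 (total-count scaling). Leaving out each WT library in turn gave 3932 to 4580 and 4584 to 5248 genes; the remaining library of that group is then assumed to vary like the other groups. At 2-fold or more these ranges were 1836 to 2001 and 2672 to 2892. The replicate numbers are not stated to pair the samples: across genes the differences between replicates 1 and 2 in the media had a Pearson r of -0.02, and the fit with a replicate block called 4605 genes higher and 5261 lower. Of the genes picked by the naming rules, 4 changed direction in some setting, all with small changes or few counts. Sox2 (-0.032) and Pou5f1 (-0.11) turned under total-count scaling, and Lefty2 without the second Repsox library (1.67). Trim67 turned without the second Repsox library (0.97) or the first TGF-beta library (0.27). Some list members named beyond those rules also turned, among them Dsp (-0.16), Gapdh (-0.14) and Grb10 (-0.19) under total-count scaling. Over the libraries left out, Lefty2 ranged from -2.92 to 1.67, passing as lower without the first Repsox library (-2.32), and Trim67 from -1.94 to 0.97. The cause of these changes was not tested. With 2 libraries per group, genes under about 1 CPM have wide errors, and a p above the threshold does not show that they were unchanged.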
